A study of Mus musculus with 20 samples.

Results

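Macrophage and dendritic cell genes are described here in mouse thymocytes and thymic tumours with or without the transcription factor gene Gfi1. They are the lysozyme genes Lyz1 and Lyz2, the lysosomal genes Ctss and Cd68, the complement genes C1qa, C1qb and C1qc, and the surface receptor genes Itgax, Msr1 and Fcgr1. The 10 genes were chosen by symbol, from probe sets that the platform annotation assigns to exactly 1 gene. All 10 were found, with 65 probe sets of the 167016 that carry 1 gene symbol, among 19607 genes. The study measured RNA of 20 samples in 8 groups on expression microarrays, 1 array per sample, all of C57BL/6 mice. The 10 tumour arrays comprise 2 KO Notch tumours (Mx1Cre+ Gfi1f/f, Notch tg), 2 WT Notch tumours (Gfi1f/f, Notch tg), 3 ENU tumours labelled KO (Mx1Cre+ Gfi1f/f) and 3 WT ENU tumours (Gfi1f/f). The mutagen ENU was given to the mice of all 4 tumour groups, the Notch transgenic ones included, where the labels name the agent Notch1-CT. Mice of these groups, WT included, then received pIpC, an interferon inducer that switches on the Mx1Cre recombinase, once a chest tumour was seen by ultrasound, and cells were taken about 2 to 3 weeks later. The 10 thymocyte arrays comprise 3 irradiated Gfi1 KO, 3 irradiated WT, 2 untreated Gfi1 KO and 2 untreated WT samples. The sources used here give neither the Gfi1 allele of the thymocyte groups nor the radiation dose and the time after it. They do not say either that samples of a group are separate mice, so the p-values measure the spread between these samples, which may be technical.

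Macrophages and dendritic cells are a small population of the thymus, where macrophages clear the many thymocytes that die during selection and dendritic cells present antigen to the survivors. Both take up material by receptors such as scavenger and Fc receptors and break it down in lysosomes. GFI1 is a zinc finger repressor that thymocytes and blood progenitors use. It is known for restraining the monocyte and macrophage programme while granulocytes form, and mice without it lack mature neutrophils.

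The promoters of 8 of the 10 genes were found in RefSeq's GRCm38.p6 table, as windows of 250 bases before to 50 bases after each start, and those of C1qa and Msr1 were not analysed here. They are shown because genes of this kind are known targets of the myeloid factor PU.1, whose family binds a GGAA core. The letters GGAAGT, on either strand, were in 8 of the 8 windows, against 23.8% of all 32851 windows in the table. The longer AGGAAGT, which contains it, was in 6 of the 8 (Lyz1, Lyz2, Ctss, C1qb, C1qc and Fcgr1), against 9.35% of all windows. The core letters of the GFI1 site, AATC on either strand, were in 6 of the 8, against 73.1% of all windows, so a member with a match is no more than is usual. GAAA repeated after a spacer of 2 bases, on either strand, a pattern of interferon-responsive promoters, was in Ctss alone among the 8, against 3.44% of all windows. The motifs were picked for this description with the members known. These matches are letters in a sequence and not binding sites. Stretches of 100 bases from the 250 before the start are given 5′ to 3′ on the gene's strand, with the reverse complement of AGGAAGT in capitals, and for Ctss the interferon-type match in capitals.
Lyz1 (chr10:117292916-117293015, minus strand): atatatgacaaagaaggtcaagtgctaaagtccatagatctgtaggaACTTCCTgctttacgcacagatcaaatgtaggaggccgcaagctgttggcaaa
Lyz2 (chr10:117282320-117282419, minus strand): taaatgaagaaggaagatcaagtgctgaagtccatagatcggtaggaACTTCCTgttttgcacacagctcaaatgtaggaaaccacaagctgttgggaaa
Ctss (chr3:95526686-95526785, plus strand): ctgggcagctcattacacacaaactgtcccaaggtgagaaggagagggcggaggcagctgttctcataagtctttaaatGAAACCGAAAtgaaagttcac
C1qb (chr4:136886201-136886300, minus strand): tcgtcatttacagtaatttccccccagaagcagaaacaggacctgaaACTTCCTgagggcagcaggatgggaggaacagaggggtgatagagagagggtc
C1qc (chr4:136893057-136893156, minus strand): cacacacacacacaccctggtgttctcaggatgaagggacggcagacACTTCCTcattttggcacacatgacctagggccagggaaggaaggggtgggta
Fcgr1 (chr3:96293978-96294077, minus strand): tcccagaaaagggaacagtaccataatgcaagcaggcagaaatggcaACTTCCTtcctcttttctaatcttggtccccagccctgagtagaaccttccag
The Lyz1 and Lyz2 stretches carry the match at the same distance from the start, 100 bases before it. Over the last 100 bases before the start the promoters of Lyz1 and Lyz2 were 92.0% identical without gaps, and over 250 bases 60.8%. Lyz1 and Lyz2 are neighbouring coding genes on chromosome 10, and C1qb, C1qc and C1qa are consecutive coding genes on chromosome 4. Because Lyz1 and Lyz2 are near-identical copies, with 1 and 3 probe sets, each may pick up RNA of the other, and their values are not independent.

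The array medians lay between 9.08 and 9.27 log2 signal, and arrays of a group correlated at 0.870 to 0.988 over all probe sets, with no pair of identical arrays. The T cell gene Cd3e lay at the 99.8th percentile of genes or above in every group mean, as fits the label of thymocytes. The second KO Notch tumour stood apart. Its mean level of 13 B cell genes was 12.54 log2, against at most 9.15 in any other array, and that of 17 thymocyte genes was 9.31, against at least 10.82 elsewhere, while its Cd3e level was 12.38, against at least 13.50 elsewhere. It thus goes against its source label of thymocytes. Levels and tests of its group are also given without it for several genes, as are the correlations over all arrays. In the other tumour comparisons it enters the shared spread and the filter, and only fits of just the groups compared leave it out. The fits of all arrays keep it. Gfi1 itself differed by probe set. At the probe set with the largest drop it read 5.62 and 5.67 in untreated KO thymocytes, against 12.07 and 11.83 in untreated WT thymocytes, and 6.31 and 7.10 in KO Notch tumours, against 11.43 and 11.01 in WT Notch tumours. The same probe set read 12.72, 12.72 and 12.74 in irradiated KO thymocytes, against 11.56, 11.61 and 11.34 in irradiated WT thymocytes, where another probe set fell by 2.44 and the gene level by 1.31 (limma, adjusted p = 6.59e-07). In ENU tumours labelled KO it read 11.01, 10.70 and 10.85, against 11.22, 11.56 and 10.58 in WT ENU tumours. There 7 of 8 probe sets were lower, the lowest at -0.65, and the gene level differed by -0.24 (limma, adjusted p = 0.633). The gene level showed no loss either in untreated KO thymocytes (0.26, adjusted p = 0.333) or KO Notch tumours (-0.12, adjusted p = 0.969). A large drop at a probe set, seen in the other KO groups, is not seen in the ENU arrays, so they are called "labelled KO".

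The levels below are log2 signals. For a gene with several probe sets, the level is the median, per array, of the probe sets' deviations from their own means, with the mean of those means added back. Levels of different genes are not compared, because probes differ in brightness.

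**Figure D1:**
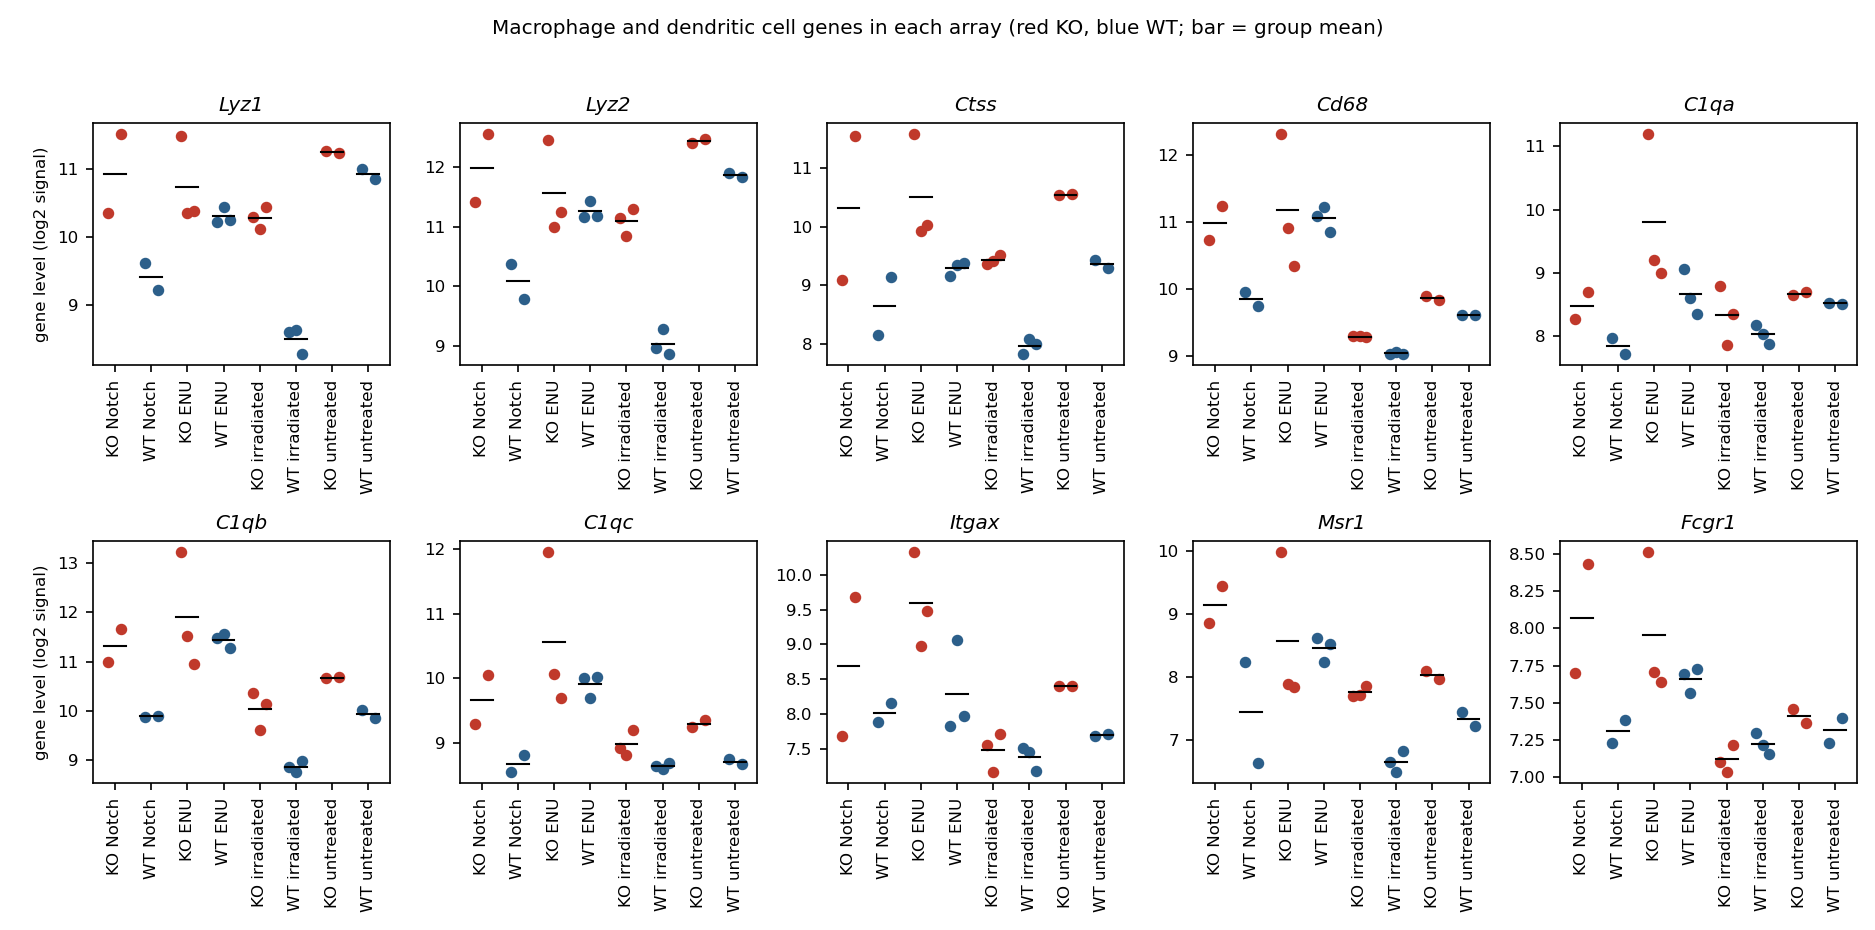
Level of each of the 10 genes (log2 signal, y axis, scaled per gene) in each of the 20 arrays by group, with KO arrays in red, WT arrays in blue and a bar at each group mean. KO points lie above WT points for most genes in untreated and irradiated thymocytes, and the first ENU tumour labelled KO is the top point of its group in every panel.

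The order of the groups was alike for both lysozyme genes, enzymes that cut bacterial cell walls. Lyz2 averaged 12.43 ± 0.05 log2 in untreated KO thymocytes (SD, n = 2), the highest of the 8 groups, and 9.04 ± 0.22 in irradiated WT thymocytes (SD, n = 3), the lowest. From the top, its order was untreated KO thymocytes, KO Notch tumours, untreated WT thymocytes, ENU tumours labelled KO, WT ENU tumours, irradiated KO thymocytes, WT Notch tumours and irradiated WT thymocytes. Arrays of neighbours in that order overlapped except at the last 2 steps, where irradiated KO thymocytes lay above WT Notch tumours and those above irradiated WT thymocytes. Lyz1 had the same order and the same 2 gaps. The second KO Notch tumour sets the place of its group. Without it, the other KO Notch tumour read 11.42 for Lyz2 and 10.34 for Lyz1, below untreated WT thymocytes (11.86 and 10.92) and ENU tumours labelled KO (11.56 and 10.74), so KO Notch came after both of these groups.

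Ctss encodes cathepsin S, the protease that trims the invariant chain of MHC class II, and was also highest in untreated KO thymocytes (10.55 ± 0.02, SD, n = 2) and lowest in irradiated WT thymocytes (7.97 ± 0.13, SD, n = 3). Cd68, a lysosomal membrane protein of macrophages, had another order, with the 3 tumour groups ENU labelled KO, ENU WT and KO Notch on top and the irradiated groups at the bottom. The lowest array of those 3 tumour groups read 10.35 and the highest thymocyte array 9.90. C1qa, C1qb and C1qc encode the chains of C1q, which opens the classical complement pathway and which macrophages and dendritic cells make, and all 3 were highest in ENU tumours labelled KO. C1qb averaged 11.90 ± 1.19 there (SD, n = 3), a spread that overlapped WT ENU tumours (11.44 ± 0.15, SD, n = 3). Itgax, the CD11c integrin of dendritic cells and some macrophages, was highest in ENU tumours labelled KO as well, while Msr1, a class A scavenger receptor, and Fcgr1, the high-affinity IgG receptor, were highest in KO Notch tumours. Without the second KO Notch tumour Msr1 was still highest there, at 8.86 in the 1 array left, while Fcgr1 read 7.70, below 7.95 in ENU tumours labelled KO. Itgax then read 7.69 in KO Notch and took the sixth place of the 8 groups in place of the second, and Ctss read 9.09 and took the sixth in place of the third. Fcgr1 had the narrowest range, from 7.03 to 8.52 log2 over the 20 arrays, and C1qb the widest, from 8.75 to 13.23.

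The question of the first comparison is what the loss of Gfi1 changed in unstressed thymocytes. In untreated thymocytes, 6 of the 10 genes were higher in KO than in WT (limma, Benjamini-Hochberg adjusted p under 0.05 over the 12747 genes tested, of which 6.79% were higher), and none was lower. They were Ctss, C1qb, Itgax, Msr1, C1qc and Lyz2. Lyz1, Cd68 and C1qa did not pass, and Fcgr1 was not tested. A gene was tested where at least 2 arrays of the fit lay above the 40th percentile of their array, and Itgax and Msr1 met this through the 2 untreated KO arrays alone, so their counts here and in irradiated thymocytes partly follow from the filter. With no filter and all 10 genes tested, the same 6 were higher, against 7.43% of genes called in either direction. In whole cell samples, more cells of a type and more RNA per cell cannot be told apart.

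Ctss changed most among these genes in untreated thymocytes. It read 10.54 and 10.56 log2 in KO, against 9.43 and 9.30 in WT, a difference of 1.18 ± 0.11 (SE), or 2.27-fold (adjusted p = 1.56e-06). Lyz2 read 12.40 and 12.47 in KO, against 11.89 and 11.83 in WT, a difference of 0.57 ± 0.15 (SE, adjusted p = 0.0176). The KO arrays lay above the WT arrays for both. Lyz1 read 11.27 and 11.24 in KO, against 10.99 and 10.84 in WT, and its difference of 0.34 had an adjusted p of 0.132. Cd68 read 9.90 and 9.84 in KO, against 9.61 and 9.62 in WT, a difference of 0.26 with an adjusted p of 0.116. For these 2 genes, and for C1qa, the arrays did not overlap either, but that held for 61.9% of all genes tested with 2 arrays a group.

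The 3 chains of C1q did not give the same result. C1qb read 10.67 and 10.68 in KO, against 10.01 and 9.85 in WT, a difference of 0.74 ± 0.18 (SE, adjusted p = 0.00878). C1qc read 9.24 and 9.36 in KO, against 8.74 and 8.68 in WT, a difference of 0.59 ± 0.12 (SE, adjusted p = 0.00364). For C1qa, with 1 probe set, the arrays read 8.64 and 8.69 in KO, against 8.52 and 8.50 in WT, and the difference was 0.15 with a 95% interval of -0.27 to 0.58. Whether the chains differ from each other was not tested. Among the receptors, Itgax read 8.40 and 8.40 in KO, against 7.68 and 7.72 in WT (0.70 ± 0.15, SE, adjusted p = 0.00467). Msr1 read 8.09 and 7.97 in KO, against 7.44 and 7.22 in WT (0.70 ± 0.13, SE, adjusted p = 0.0011). Fcgr1 read 7.46 and 7.36 in KO, against 7.23 and 7.39 in WT, all dim and overlapping.

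With 1 untreated KO array left out, fewer of the genes passed. Without the first, Ctss and C1qc passed, and without the second Ctss alone, but Itgax and Msr1 were not tested in these fits, because the filter removed them. With each of the 2 arrays left out and no filter, a setting chosen after seeing the data, Ctss, C1qc and Msr1 passed without the first and Ctss and Msr1 without the second. Itgax did not pass there (0.70 in both, adjusted p = 0.0728 and 0.0684). Ctss, C1qc, Itgax and Msr1 also passed without the first or the second untreated WT array. In a fit of all 20 arrays, whose tumours vary more, none of the 10 passed.

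**Figure D2:**
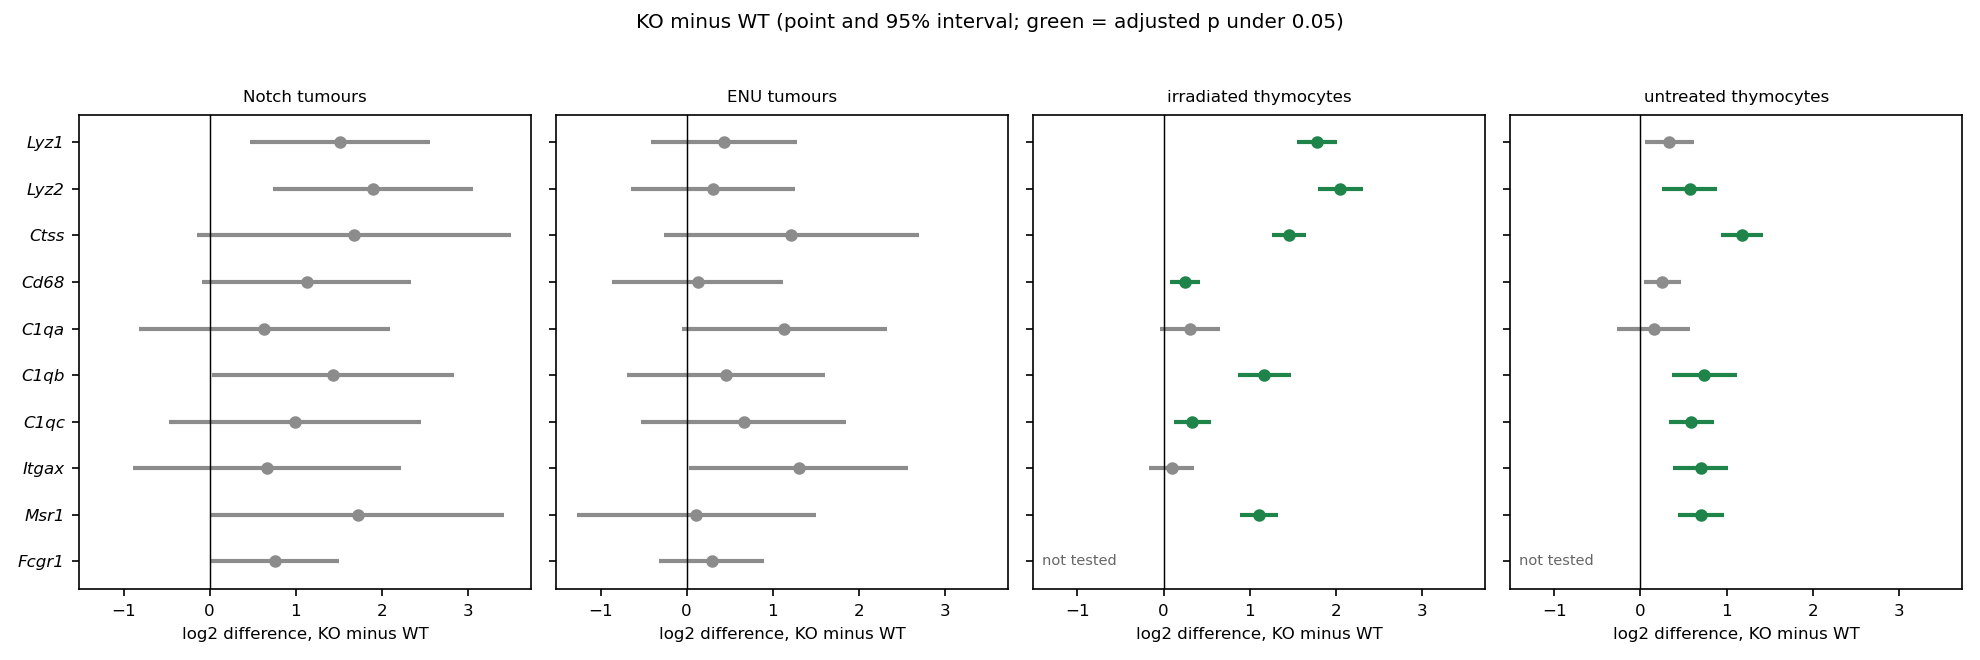
Log2 difference of each gene, KO minus WT, with its 95% interval, in Notch tumours, ENU tumours (KO as labelled), irradiated thymocytes and untreated thymocytes; green marks an adjusted p under 0.05 (limma). The intervals are narrow in thymocytes, where 7 genes pass after irradiation and 6 without it, and wide in tumours, where none passes.

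After irradiation, 7 of the 10 genes were higher in KO than in WT thymocytes (8.12% of genes tested were higher) and none was lower. They were both lysozymes, Ctss, Cd68, C1qb, C1qc and Msr1. Itgax and C1qa did not pass, and Fcgr1 was not tested. With no filter 5 of the 10 passed, since C1qc and Cd68 no longer did, and without replicate arrays in turn 5 to 7. In the fit of all 20 arrays the 2 lysozymes passed.

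The lysozymes differed most. Lyz2 read 11.15, 10.84 and 11.30 in irradiated KO thymocytes, against 8.97, 9.29 and 8.86 in irradiated WT thymocytes, a difference of 2.06 ± 0.12 (SE), or 4.16-fold (adjusted p = 2.4e-09). Lyz1 read 10.29, 10.11 and 10.44 in KO, against 8.60, 8.62 and 8.27 in WT, a difference of 1.79 ± 0.11 (SE), or 3.45-fold (adjusted p = 3.83e-09). Ctss read 9.36, 9.41 and 9.51 in KO, against 7.82, 8.08 and 8.0003 in WT, a difference of 1.46 ± 0.09 (SE, adjusted p = 5.64e-09). In all 3 genes the lowest KO array lay more than a log2 unit above the highest WT array. Cd68 differed far less, at 9.30, 9.30 and 9.29 in KO, against 9.03, 9.06 and 9.04 in WT, a difference of 0.25 ± 0.08 (SE, adjusted p = 0.0461) close to the threshold.

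C1qb read 10.37, 9.60 and 10.14 in irradiated KO thymocytes, against 8.86, 8.75 and 8.98 in irradiated WT thymocytes, a difference of 1.17 ± 0.14 (SE, adjusted p = 1.48e-05). C1qc read 8.93, 8.81 and 9.20 in KO, against 8.64, 8.60 and 8.69 in WT, a smaller difference of 0.34 ± 0.10 (SE, adjusted p = 0.0339). C1qa read 8.79, 7.84 and 8.35 in KO, against 8.17, 8.03 and 7.86 in WT, and the groups overlapped (0.31, adjusted p = 0.265). Msr1 read 7.69, 7.71 and 7.86 in KO, against 6.63, 6.48 and 6.81 in WT, a difference of 1.11 ± 0.10 (SE, adjusted p = 5.88e-07). The levels of Msr1 lay below the 40th percentile of the array in every irradiated sample, and Itgax did too. Itgax read 7.56, 7.16 and 7.71 in KO, against 7.51, 7.46 and 7.18 in WT, with overlap and a difference of 0.09. Fcgr1 read 7.10, 7.03 and 7.22 in KO, against 7.29, 7.22 and 7.15 in WT, also overlapping.

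Probe sets moved alike in some of the genes and were spread in others. The 3 Lyz2 probe sets gave KO minus WT differences of 1.98 to 2.21 in irradiated and of 0.43 to 0.62 in untreated thymocytes. Of the 9 Ctss probe sets, 7 gave 1.18 to 1.98 in irradiated thymocytes, while the other 2 gave -0.08 and 0.02. Those 7 also gave 1.12 to 1.36 in untreated thymocytes. The 2 C1qb probe sets gave 0.84 and 1.51 in irradiated thymocytes. The 10 Msr1 probe sets ran from -0.36 to 2.50 in irradiated thymocytes, with 9 positive. The 2.50 came from a probe set that averaged only 5.01 in irradiated WT thymocytes. The 24 Itgax probe sets lay on both sides of 0 after irradiation, with 15 positive, from -0.80 to 0.85, and in untreated thymocytes 23 of 24 were positive. Of the 6 Fcgr1 probe sets 3 were positive after irradiation, from -0.28 to 0.26.

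**Figure D3:**
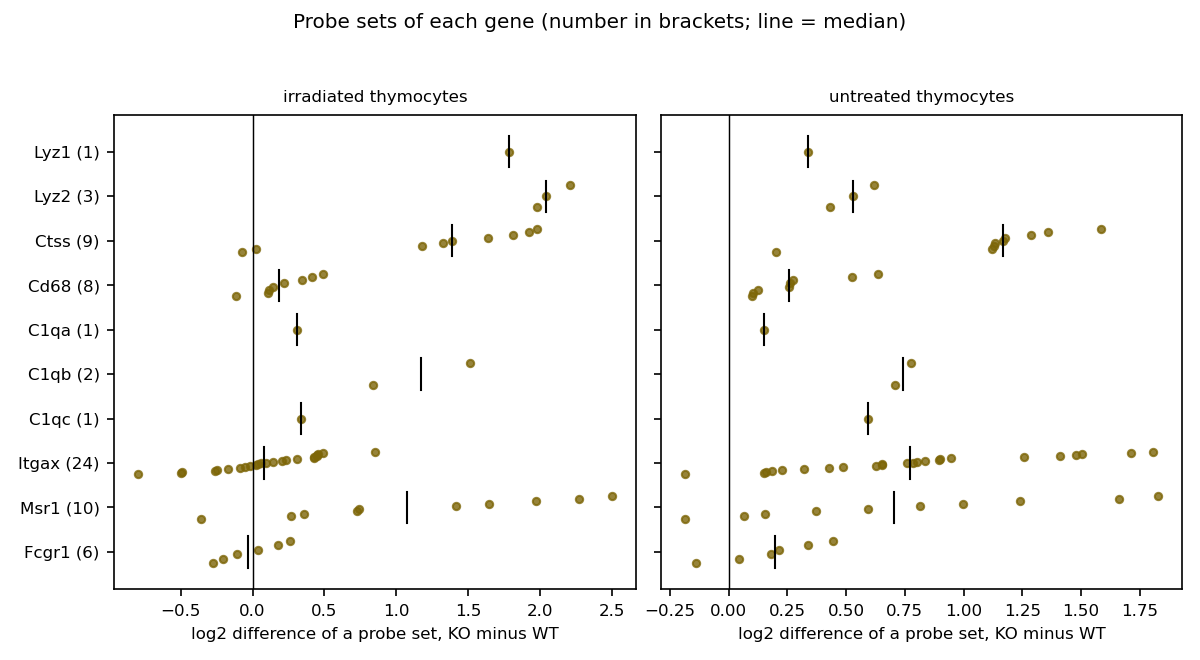
Log2 difference, KO minus WT, of every probe set of each gene in irradiated (left) and untreated (right) thymocytes, with a line at the median of the gene's probe sets. The Lyz2 and C1qb points lie together on the KO side in both panels, 2 of 9 Ctss points lie near 0 after irradiation, and the Itgax points straddle 0 there.

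Other macrophage genes moved the same way where they passed. In untreated thymocytes, 4 of 13 tested were higher in KO and none lower, with a median of 0.28, beside -0.02 over all genes. The 4 were the heme oxygenase Hmox1 (0.62, adjusted p = 0.00264), the pore-forming Mpeg1 (0.55), the phosphatidylserine receptor Timd4 (0.49) and the CSF1 receptor Csf1r (0.47). In irradiated thymocytes 4 of 13 were higher and none lower, among them the NADPH oxidase chain Cybb (0.99, adjusted p = 9.72e-07) and the Fc receptor chain Fcer1g (0.61). Dendritic cell genes were higher in KO for 10 of 18 in untreated thymocytes with none lower. Those with the smallest p were the maturation marker Cd83 (0.60), the costimulator Cd86 (0.59) and the MHC class II gene H2-Eb1 (0.60). In irradiated thymocytes 8 of 18 were higher and 1 lower, and H2-Aa, another MHC class II gene, differed by 1.16 (adjusted p = 2.06e-07).

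Genes of the same pathways gave mixed counts. Over all genes tested 6.79% were higher in untreated and 8.12% in irradiated KO thymocytes, so counts of 1 or 2 in such short lists say little. Of 9 other complement genes and receptors tested, 4 were higher in untreated KO thymocytes and 5 in irradiated KO thymocytes, with none lower. C3, the central component, differed by 1.05 in untreated (adjusted p = 1.05e-05) and 0.63 in irradiated thymocytes. Of 16 other lysosomal genes, 2 were higher in untreated KO thymocytes, Lgmn, the asparaginyl endopeptidase (1.34, adjusted p = 2.29e-06), and Ctsh, cathepsin H (0.50). In irradiated KO thymocytes 4 were higher and 2 lower, with Lgmn at 1.30 and the progranulin gene Grn at -0.62. Of 11 scavenger and clearance receptors 2 were higher in untreated KO thymocytes, and after irradiation 1 was higher and 2 lower. Of 7 other genes of Fc receptors and their signalling none was higher and Fgr, a Src family kinase, was lower in untreated KO thymocytes (-0.44, adjusted p = 0.0282). In irradiated KO thymocytes 2 of the 7 were higher, Fcer1g among them, and Fgr was lower (-0.43, adjusted p = 0.00716).

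Markers of other cells differed in the same arrays, and their part in the result was not tested. The mean level of 15 granulocyte genes was 6.97 and 6.87 log2 in untreated KO thymocytes, against 8.96 and 8.83 in untreated WT thymocytes, and 7.03 to 7.09 in irradiated KO thymocytes, against 7.75 to 7.84 in irradiated WT thymocytes. Of 13 tested, 12 were lower in untreated KO and 9 in irradiated KO thymocytes, while the lysozyme differences were positive. Granulocytes are also known to make lysozyme. B cell genes were higher in KO for 7 of 12 in untreated thymocytes, with a mean of 9.12 and 9.03 in KO, against 8.66 and 8.54 in WT, and for 7 of 12 in irradiated thymocytes, with 2 lower. Erythroid and platelet genes were higher in untreated KO for 5 of 8 and in irradiated KO for 4 of 8, with none lower after irradiation. Of 17 thymocyte genes 1 was lower in untreated and 4 in irradiated KO thymocytes, and their mean was 12.49 and 12.53 in untreated KO, against 12.61 and 12.58 in untreated WT thymocytes.

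**Figure D4:**
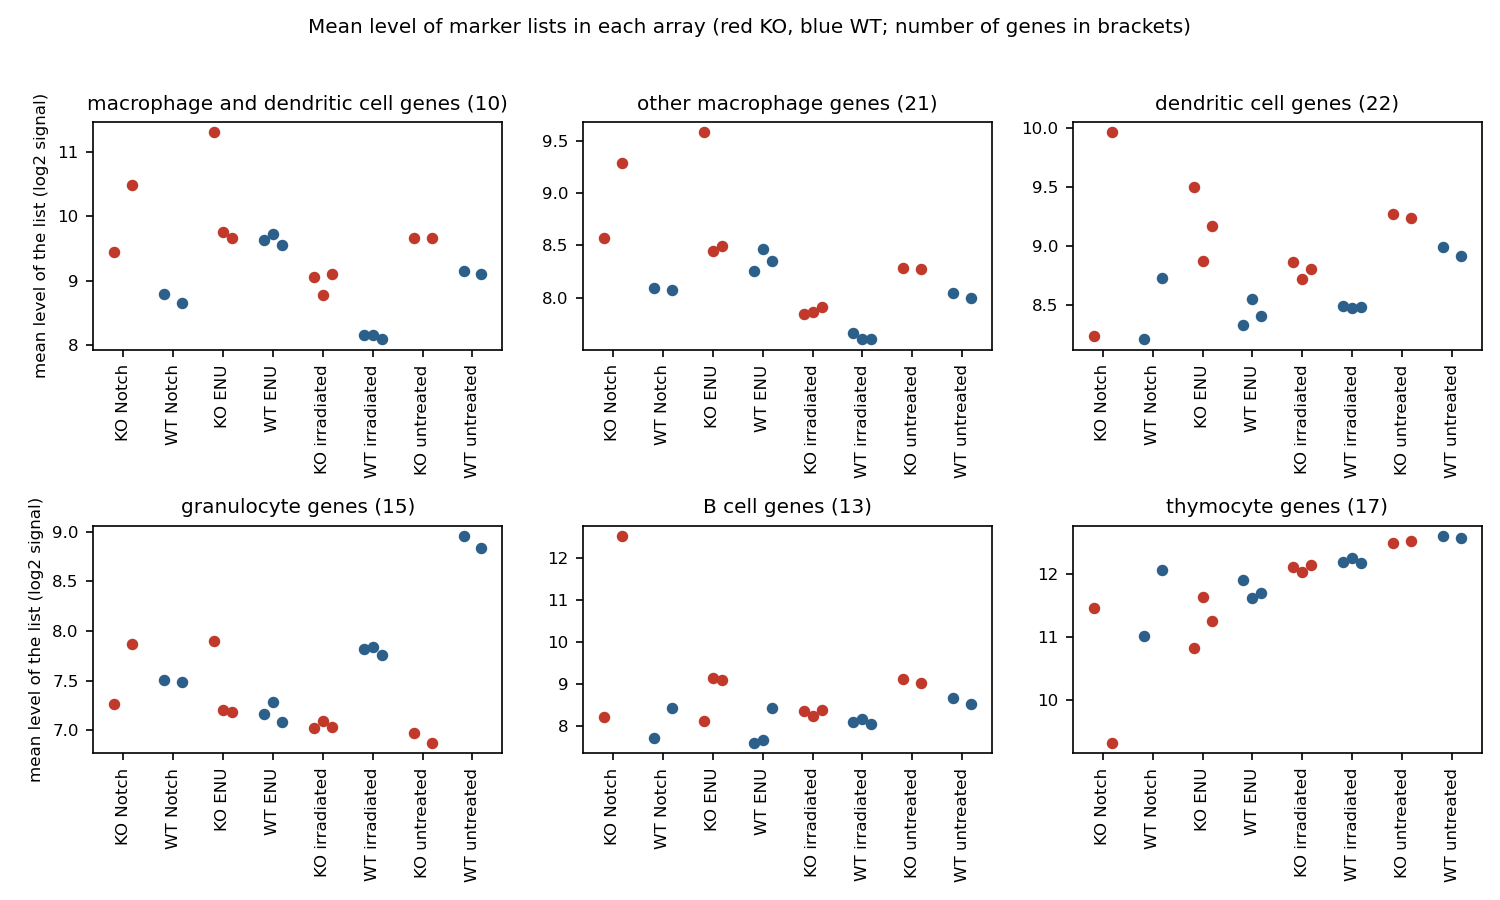
Mean log2 level in each array of the 10 genes and of 5 marker lists (number of measured genes in brackets), by group, KO in red and WT in blue. Granulocyte genes are highest in untreated WT thymocytes, and the second KO Notch tumour stands apart with a B cell mean of 12.54 and a thymocyte mean of 9.31.

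Irradiation went with lower levels in both genotypes. In WT thymocytes 7 of the 10 genes were lower in irradiated than in untreated samples (21.7% of genes tested were lower) and none was higher. In KO thymocytes 7 of the 10 were also lower (23.7% of genes tested) and none was higher. The genes shared by both counts were Lyz1, Lyz2, Ctss, Cd68 and C1qb. C1qa and Msr1 passed in WT, and C1qc and Itgax in KO. In the fit of all 20 arrays 2 genes passed in WT and 1 in KO. Genes of several other lists were lower in the same arrays, but not of all. Of 13 other macrophage genes 7 were lower and 1 higher in irradiated KO, and 7 lower in irradiated WT thymocytes. Of 18 dendritic cell genes 11 were lower and 3 higher in KO, and 9 lower and 2 higher in WT. Of 11 scavenger and clearance receptors 1 was lower and 1 higher in KO, and 2 lower and 3 higher in WT. Of 12 B cell genes 10 were lower in KO and 9 in WT, where 1 was higher. Of 15 interferon response genes 14 were lower in KO, with a median of -1.01, and 13 in WT, with a median of -1.10, and none was higher. The part of these other changes in the result was not tested. The irradiated KO samples differ from the untreated KO samples also in the Gfi1 probe set given above. Irradiated and untreated samples carry separate runs of file numbers (45 to 50 and 77 to 80). Neither difference can be told apart from irradiation here.

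**Figure D5:**
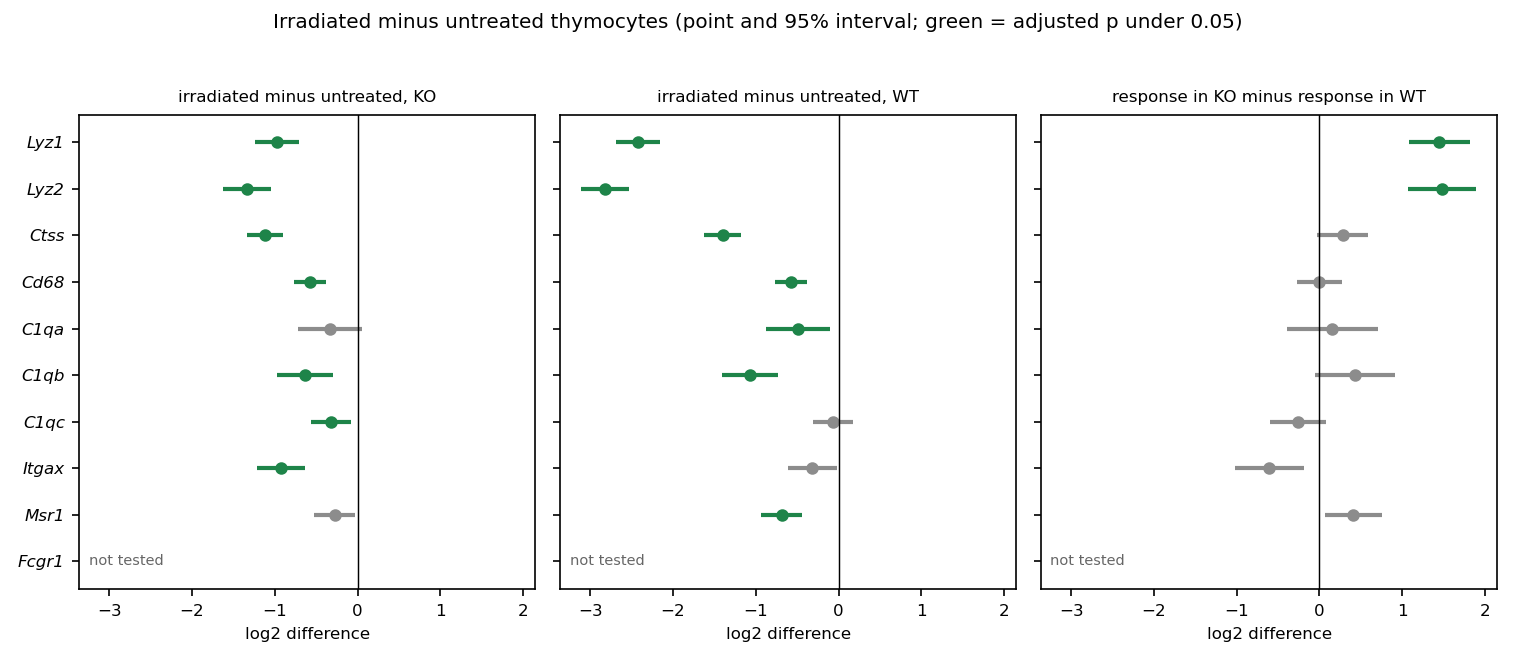
Log2 difference of each gene with its 95% interval, irradiated minus untreated, in KO (left) and WT (middle) thymocytes, and the response in KO minus the response in WT (right); green marks an adjusted p under 0.05 (limma). Lyz1 and Lyz2 lie farthest below 0 in WT, and in the right panel they are the 2 genes past the threshold.

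Lyz2 fell most in both genotypes. It averaged 11.10 in irradiated, against 12.43 in untreated KO thymocytes, and 9.04 in irradiated, against 11.86 in untreated WT thymocytes. These are differences of -1.34 ± 0.14 in KO (SE, adjusted p = 1.63e-06) and -2.82 ± 0.14 in WT (SE, adjusted p = 7.81e-10). Lyz1 differed by -0.97 ± 0.12 in KO and -2.42 ± 0.12 in WT (SE, adjusted p = 1.51e-05 and 1.26e-09). The drop in the lysozymes was therefore smaller in KO. The test of that difference gave 1.45 ± 0.18 for Lyz1 (SE, 95% interval 1.08 to 1.82, adjusted p = 0.000207) and 1.48 ± 0.19 for Lyz2 (SE, 95% interval 1.07 to 1.90, adjusted p = 0.000453), where 1.1% of all genes were called in this direction. Both passed with each of the 10 thymocyte arrays left out (adjusted p at most 0.00324 for Lyz1 and 0.00542 for Lyz2). Neither passed in the fit of all 20 arrays, where the adjusted p was 1 for both.

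Ctss fell in both genotypes. It differed by -1.12 ± 0.10 in KO and -1.40 ± 0.10 in WT (SE), and the difference of the responses was 0.28 with a 95% interval of -0.03 to 0.59 (adjusted p = 0.462). Cd68 differed by -0.58 in KO and -0.57 in WT (adjusted p = 0.000121 and 0.000154), and the difference of its responses was -0.0035, with an interval of -0.28 to 0.27. C1qb differed by -0.64 in KO and -1.07 in WT, and the difference of 0.43 did not pass (adjusted p = 0.462). C1qc differed by -0.32 in KO (adjusted p = 0.0338) and -0.07 in WT, and C1qa by -0.34 in KO and -0.49 in WT (adjusted p = 0.0467 in WT). The calls of C1qc in KO and of C1qa in WT were close to the threshold, and neither passed with quantile normalization or with no filter.

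Itgax differed by -0.92 ± 0.14 in KO (SE, adjusted p = 7.87e-05) and by -0.32 in WT (adjusted p = 0.0872). Itgax and Msr1 were tested through the 2 untreated KO arrays alone, as above, so the KO difference of each partly follows from the filter. With no filter the adjusted p of Itgax was 0.000226 in KO and 0.12 in WT, and that of Msr1 0.0941 in KO and 0.000666 in WT. The difference of its responses, -0.61, had an adjusted p of 0.149, and passed where probe sets were averaged by their mean. Msr1 differed by -0.28 in KO (adjusted p = 0.068) and by -0.69 in WT (adjusted p = 0.000264), and the difference of 0.41 did not pass (adjusted p = 0.273). Fcgr1, tested with no filter only, differed by -0.29 in KO (adjusted p = 0.0464) and -0.09 in WT.

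Beside the lysozyme result, granulocyte genes gave the largest count in the same test. Of 13 tested, 11 were higher in the response of KO minus the response of WT and 1 lower, with a median of 1.46, led by S100a8 (2.57, adjusted p = 6.63e-08) and S100a9 (2.38), calcium-binding proteins of neutrophils, and the neutrophil collagenase Mmp8 (2.33). In WT thymocytes 11 of 13 granulocyte genes were lower after irradiation, and in KO thymocytes 1 was lower and 3 higher. Their part in the lysozyme result was not tested. Of 13 other macrophage genes 1 was higher in this test, Cybb (0.67, adjusted p = 0.0296), which neutrophils also express, and of 9 complement genes and receptors 1 was higher, Itgam (0.97, adjusted p = 0.00552), the CD11b integrin of both lineages.

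In Notch tumours, none of the 10 genes passed the test between KO and WT (limma, 5 with an unadjusted p under 0.05; 0.0154% of the 13025 genes tested were called, in either direction). All 10 differences were positive, from 0.64 for C1qa to 1.89 for Lyz2. In 8 of the 10 the KO arrays lay above the WT arrays, as did 11.7% of all genes tested. Fcgr1 is in each of these counts, and its place there partly follows from the filter, as given below. Lyz1 and Lyz2 are in each as well and are not independent. The second KO array, which goes against its source label, was the higher of the KO arrays in all 10 genes. Lyz2 read 11.42 and 12.55 in KO, against 10.38 and 9.80 in WT (1.89 ± 0.51, SE, adjusted p = 0.61). Ctss read 9.09 and 11.55 in KO, against 8.15 and 9.14 in WT (1.68 ± 0.80, SE, adjusted p = 0.806), so its groups overlapped. Msr1 read 8.86 and 9.45 in KO, against 8.24 and 6.62 in WT (1.72, adjusted p = 0.806), and the 2 WT arrays lay further apart than the 2 KO arrays.

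Without the second KO Notch array, the difference was 1.33 for Lyz2, 0.93 for Lyz1, 0.45 for Ctss, 1.10 for C1qb and 1.43 for Msr1, and that of Itgax turned to -0.33, none of them past the threshold. Without the first KO array, which leaves the array with B cell genes and assumes that it varies like the others, Lyz1 (2.10, adjusted p = 0.0313), Lyz2 (2.46, adjusted p = 0.0346) and Ctss (2.91, adjusted p = 0.0399) passed, as did 1066 genes in all. Cd79a, a chain of the B cell receptor, read 9.55 and 13.76 in the 2 KO Notch tumours, against 8.28 and 9.95 in the 2 WT ones. Dendritic cell genes averaged 8.24 and 9.97 in KO, against 8.21 and 8.72 in WT, and other macrophage genes 8.57 and 9.29, against 8.09 and 8.07. Of 18 other macrophage genes tested none passed, with a median of 1.04. Fcgr1 was tested in tumours only through 1 KO Notch array and 1 ENU array labelled KO that lay above the filter. Its positive KO differences in both kinds of tumour therefore partly follow from the filter.

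In ENU tumours, none of the 10 genes passed either between tumours labelled KO and WT ones (limma, 1 with an unadjusted p under 0.05, Itgax; 0% of genes were called). All 10 differences were positive, from 0.11 for Msr1 to 1.30 for Itgax, with that of Fcgr1 partly following from the filter. The first tumour labelled KO was the highest of its group in all 10 genes. C1qb read 13.23, 11.52 and 10.95 in tumours labelled KO, against 11.49, 11.57 and 11.27 in WT (0.46 ± 0.50, SE, adjusted p = 0.622). Cd68 read 12.31, 10.91 and 10.35, against 11.09, 11.23 and 10.86 in WT. In both genes 1 of the other 2 arrays labelled KO lay within the WT range and 1 below it. Ctss was the 1 gene whose groups did not overlap, where 10.4% of all genes did not overlap and were higher. It read 11.58, 9.93 and 10.03 in tumours labelled KO, against 9.17, 9.34 and 9.38 in WT (1.22 ± 0.65, SE, adjusted p = 0.386).

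Itgax read 10.32, 8.97 and 9.48 in ENU tumours labelled KO, against 7.83, 9.06 and 7.97 in WT (1.30 ± 0.56, SE, adjusted p = 0.363), with the second WT array above the lowest KO-labelled one. Without the first tumour labelled KO the differences were 0.94 for Itgax and 0.69 for Ctss, and those of Lyz2, Cd68, C1qb, C1qc and Msr1 turned negative, from -0.03 to -0.59. That tumour was also the highest array in other macrophage genes, with a mean of 9.58, against 8.45 and 8.49 in the others labelled KO and 8.25 to 8.46 in WT ENU tumours. Interferon response genes averaged 9.69, 9.15 and 9.52 in tumours labelled KO, against 7.81, 8.09 and 8.30 in WT, with a median difference of 1.5 and none of 16 past the threshold. Mice of both groups received pIpC, and the part of an interferon response was not tested.

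The difference of the KO effect between Notch and ENU tumours passed for none of the 10 genes (limma, 1 with an unadjusted p under 0.05, Lyz2; 0% of genes were called). The estimates ran from -0.64 for Itgax to 1.61 for Msr1. Their intervals were wide, 0.09 to 3.09 for Lyz2 and -2.65 to 1.38 for Itgax. Without the second KO Notch tumour none of the 9 genes then tested passed, and the estimates were 1.02 for Lyz2, 1.31 for Msr1 and -1.63 for Itgax, with those of Ctss (-0.77) and C1qc (-0.05) turned negative.

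Between WT tumours, all 10 genes had lower means in Notch than in ENU tumours, and none passed (limma, 3 with an unadjusted p under 0.05; 0.023% of genes were called in either direction). C1qb read 9.88 and 9.89 in WT Notch tumours, against 11.49, 11.57 and 11.27 in WT ENU tumours (-1.56 ± 0.56, SE, adjusted p = 0.576). Cd68 read 9.96 and 9.75 in Notch, against 11.09, 11.23 and 10.86 in ENU (-1.20 ± 0.49, SE, adjusted p = 0.628). The spread that enters these tests is shared with the KO tumours. In a fit of the 5 WT tumours alone C1qb passed, as did 17 genes in all.

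The last comparisons set WT tumours against untreated WT thymocytes and share the 2 thymocyte arrays. Tumour mice had received ENU and pIpC, and these thymocytes are taken as untreated. The file numbers are also separate, 51 to 53 for WT ENU tumours, 61 and 62 for WT Notch tumours, and 77 and 78 for the thymocytes. These differences cannot be told apart from that between tumour and thymocytes. In WT ENU tumours, 2 of the 10 genes were higher (9.87% of 13520 genes were higher) and none lower. Cd68 averaged 11.06 ± 0.19 (SD, n = 3), against 9.61 ± 0.01 in untreated WT thymocytes (SD, n = 2), a difference of 1.45 ± 0.36 (SE, adjusted p = 0.0126). C1qb averaged 11.44 ± 0.15, against 9.93 ± 0.11 in untreated WT thymocytes, a difference of 1.51 ± 0.44 (SE, adjusted p = 0.0269). Unlike Cd68, it did not pass without the first or without the second WT ENU tumour. C1qc and Msr1 had estimates of 1.20 and 1.13 that did not pass (adjusted p = 0.0722 and 0.14), and both lysozymes had negative ones, -0.61 and -0.60. Left without either thymocyte array, neither gene passed.

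In WT Notch tumours, 2 of the 10 genes were lower than in untreated WT thymocytes (5.54% of genes were lower) and none higher. Lyz1 differed by -1.51 ± 0.36 (SE, adjusted p = 0.02) and Lyz2 by -1.77 ± 0.40 (SE, adjusted p = 0.0169). Cd68 and C1qb had estimates of 0.24 and -0.05 there. With any 1 of the 4 arrays left out neither lysozyme passed. Granulocyte genes were lower than in untreated WT thymocytes in both kinds of tumour, 8 of 14 in ENU and 9 of 14 in Notch tumours, with medians of -1.55 and -1.31, and their part in the lysozyme values was not tested.

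The 10 genes varied together. Over the 20 arrays all 45 pairs had a positive Pearson correlation, from 0.522 to 0.995 with a median of 0.727, and after each array was set against its group mean from 0.372 to 0.972 with a median of 0.79. Over the 19 arrays without the second KO Notch tumour all 45 were again positive, from 0.445 to 0.994 with a median of 0.752. The arrays share groups and processing, so this is a description. The closest pairs were Lyz1 with Lyz2 (0.995), Cd68 with C1qb (0.947) and C1qb with C1qc (0.923), and the loosest was Lyz2 with Fcgr1 (0.522).

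The genes outside the 10 with the most similar levels over the 20 arrays differed by member. For Lyz1 and Lyz2 they were Gm11428, Cyth1 and Mllt6, with correlations of 0.836 to 0.875. For Ctss they were Havcr2, Ly86 and Plbd1 (0.925 to 0.946), for Cd68 Anpep, Ctsb and Pltp (0.954 to 0.975), and for C1qb Lgmn, Anpep and Apoe (0.929 to 0.938). For C1qc they were Fcgr3, Ms4a7 and Itpripl2 (0.930 to 0.941), and for C1qa Mtap2, Mgst1 and Tmem26 (0.876 to 0.889). For Itgax they were Sulf2, Tgfbi and P2ry6 (0.933 to 0.966), for Msr1 Lgmn, Pltp and Tcfec (0.893 to 0.945), and for Fcgr1 Pltp, B4galt6 and Sirpa (0.946 to 0.952). Over the 20 arrays Lgmn, Anpep and Pltp recurred for more than 1 member, and none of the genes named for the lysozymes did so for another member. Without the second KO Notch tumour, however, Mllt6 was among the 3 nearest genes of Ctss (0.932). Most of these names depend on the array that goes against its label. Without it, 2 of the 3 stayed for Lyz2, Ctss, Cd68, C1qa and Itgax, 1 for C1qb, C1qc and Msr1, and none for Lyz1, whose nearest genes were then Cfp, Cybb and Capg (0.852 to 0.863), and for Fcgr1, whose nearest were Apoe, Fcgr3 and Tlr13 (0.944 to 0.948).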

How the data were processed

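Per the labels' protocols, RNA was amplified and biotin-labelled with a NuGEN Ovation Pico kit before hybridization. The authors deposited 1 table of log2 signals for 182058 probe sets in 20 arrays. The sources used here name neither the log base, taken as 2 from the range of values (3.37 to 15.01), nor the background correction and normalization. No per-sample columns were left out. Probe sets with 1 gene symbol in the platform annotation gave 19607 gene levels (median of centred probe sets). A gene was tested if 2 or more arrays of the fit had it above their 40th percentile, with limma 3.58.1 in R 4.3.3 (lmFit, eBayes, Benjamini-Hochberg over all genes tested, threshold 0.05), on the 10 thymocyte arrays, the 10 tumour arrays or, for tumours against thymocytes, all 20. Intervals are 95% intervals of that fit, and the number of arrays limits precision. The procedure was tested on simulated data. For KO against WT, changes of 1 and -1 log2 were recovered in 90% and 96% of changed genes in untreated thymocytes. In ENU tumours it was 34% and 54%, and in Notch tumours 34% and 16.3%. For the difference of the KO effect it was 6% and 0%, so a change of that size is often missed in tumours. All 10 members were named in each comparison, and of each other list up to 4 genes with the smallest p. For each member the 3 nearest other genes by correlation were named. The members and lists were chosen with earlier results of these data known. Sequences come from RefSeq tables, and motifs were counted with Python 3.11.15.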

Additional observations from a re-analysis of the deposited data

Results flagged for a closer look

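The response to irradiation differed between KO and WT thymocytes by the interaction test for 2 of the 9 genes tested. The difference of the responses, KO minus WT, was 1.45 for Lyz1 and 1.48 for Lyz2 on the log2 scale (limma, adjusted p = 0.000207 and 0.000453). With each of the 10 thymocyte arrays left out both passed (adjusted p at most 0.00324 for Lyz1 and 0.00542 for Lyz2), and in the fit of all 20 arrays neither did (adjusted p = 1 for both). The response of Lyz1 was -0.97 in KO and -2.42 in WT, and that of Lyz2 was -1.34 in KO and -2.82 in WT. Because the copies are near identical and their levels correlated at 0.995, these 2 values amount to a repeat of each other. Of 13 granulocyte genes, 11 were higher in the same test, and their part in the result was not tested. Irradiated and untreated samples also differ in their runs of file numbers, and the 2 KO sets in a Gfi1 probe set. Neither can be told apart from irradiation here.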

How the results depend on the processing

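Another probe set summary, quantile normalization, other filters, an intensity trend, a replicate block, other sets of arrays in the fit, and each array left out were tried. Of 84 counts among the 10 genes with every array kept, 75 stayed within 1.5 times those reported. With all 20 arrays in one fit, the number called was 0 for KO against WT in untreated and 2 in irradiated thymocytes, 2 for irradiation in WT and 1 in KO, 0 for the difference of the responses, and 2 for KO against WT in Notch tumours. With only the groups compared, it was 4 for KO against WT in irradiated thymocytes, 1 for Notch against ENU tumours and 6 for ENU tumours against untreated thymocytes. Among those 6, both lysozymes were lower in the tumours, and Cd68, C1qb, C1qc and Msr1 were higher. Over all genes, with all 20 arrays in one fit, counts were 115 in place of 1566 and 148 in place of 1903 for KO against WT in untreated and irradiated thymocytes, 548 in place of 4413 and 772 in place of 4946 for irradiation in WT and KO, 6 in place of 240 for the difference of the responses, 679 in place of 0 and 184 in place of 2 for KO against WT in ENU and Notch tumours, 270 in place of 3 for Notch against ENU tumours, and 126 in place of 0 for the difference of the KO effect. With only the groups compared they were 3203 in place of 1566 for KO against WT in untreated thymocytes, 0 in place of 2 for KO against WT in Notch tumours, 17 in place of 3 for Notch against ENU tumours and 1900 in place of 1038 for Notch tumours against untreated thymocytes. For KO against WT in Notch tumours, quantile normalization gave 6 and the replicate block 0 in place of 2, for Notch against ENU tumours the block gave 1 in place of 3, and with no filter the difference of the KO effect gave 1 in place of 0. The cause was not tested.

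With 1 array left out, the number of the 10 genes called was 1 to 5 for KO against WT in untreated thymocytes, 5 to 7 in irradiated thymocytes, 6 for irradiation in WT, 5 to 7 in KO, 2 to 3 for the difference of the responses, 0 to 3 for KO against WT in Notch tumours, 0 to 2 for ENU tumours and 0 for Notch tumours against untreated thymocytes. A lone array of a group is assumed to vary like the others. Over all genes, counts for KO against WT in untreated thymocytes were 716 to 859 in place of 1566. Without an untreated array they were 2111 (the first WT array) in place of 4413 for irradiation in WT, 2678 and 2875 in place of 4946 in KO, 61 to 92 in place of 240 for the difference of the responses, 726 and 909 in place of 2713 for ENU tumours against untreated thymocytes, and 85 and 160 in place of 1038 for Notch tumours (152 without the first WT Notch tumour). For KO against WT they were 0 to 1066 in place of 2 in Notch tumours, the highest without the first KO array, and 4 in place of 0 in ENU tumours without the third WT array. They were 0 in place of 3 for Notch against ENU tumours except without that array, and up to 261 (without the first KO Notch array) in place of 0 for the difference of the KO effect. With no filter and an untreated KO array left out, chosen after seeing the data, 3 and 2 of the 10 genes were called for KO against WT and 5 in each case for irradiation in KO. Of estimates that changed sign, Cd68 in the difference of the responses was 0.0107 with quantile normalization and -0.035 to 0.028 with 1 array left out. Fcgr1 in Notch tumours against untreated thymocytes was 0.00682 with the mean of the probe sets, and -0.088 to 0.075 with 1 array left out. With 1 array left out, Itgax ranged from -0.023 to 0.25 for KO against WT in irradiated thymocytes, and C1qa from -0.078 to 0.40 in the difference of the responses. For ENU tumours labelled KO against WT the ranges were -0.14 to 0.59 for Lyz2, -0.43 to 0.55 for Cd68, -0.21 to 0.93 for C1qb, -0.032 to 1.10 for C1qc and -0.59 to 0.48 for Msr1. Itgax ranged from -0.33 to 1.66 for KO against WT in Notch tumours and from -0.50 to 0.11 for Notch against ENU tumours. For the difference of the KO effect the ranges were -0.77 to 1.69 for Ctss, -0.90 to 0.20 for C1qa, -0.11 to 1.02 for C1qc and -1.63 to 0.36 for Itgax. C1qa ranged from -0.050 to 0.31 in ENU tumours against untreated thymocytes. In Notch tumours against untreated thymocytes the ranges were -0.13 to 0.032 for C1qb, -0.16 to 0.10 for C1qc and -0.70 to 0.91 for Msr1.

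With the replicate number as a block, 6 of the 10 genes were called for KO against WT in untreated and in irradiated thymocytes, 6 for irradiation in WT and 8 in KO, and 2 for the difference of the responses. Deviations of same-numbered samples correlated at -0.456 to 0.201. In groups of 2 arrays the deviations mirror each other, so this cannot decide whether the numbers carry a pairing or batch. The 2 or 3 arrays a group limit what these tests can show, and Itgax, Msr1 and Fcgr1 were dim in thymocytes.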
